A study of Rattus norvegicus with 54 samples.

Results

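The genes followed here are Gckr, Pklr and Pfkfb1, which were found by symbol among the gene names of the array and make up 3 of the 19791 genes tested. They belong to the control of hepatic glycolysis, and each is measured by 1 probe. The 54 single-colour arrays cover 3 tissues of male Sprague-Dawley rats, namely liver, the gastrocnemius muscle and the epididymal fat pad (adipose tissue). The rats received a high-fructose diet with NDGA (HFrD-NDGA), the high-fructose diet without it (HFrD) or chow. NDGA is nordihydroguaiaretic acid, a phenolic compound of the creosote bush. The sources give its amount as 2.4 g per kg of diet or as 2.5 g and the feeding period as 8 or 16 weeks, and these were not reconciled. Each diet has a second group in each tissue whose label adds the letters INS, the meaning of which is not given in the sources used here, so that there are 18 groups of 3 arrays. Ages were not given in the sources used here. RNA of the rats of a group was pooled in equal amounts before hybridization, so the 3 arrays of a group repeat the measurement of 1 pool and every p-value below measures the spread between arrays and not between rats.

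Glucose becomes available to liver metabolism once glucokinase has phosphorylated it. Gckr encodes the glucokinase regulatory protein, which binds glucokinase and holds it inactive in the hepatocyte nucleus, and fructose 1-phosphate loosens that binding. Pfkfb1 encodes the liver form of the bifunctional enzyme that makes and removes fructose 2,6-bisphosphate, the activator of phosphofructokinase and inhibitor of fructose 1,6-bisphosphatase. Pklr encodes the pyruvate kinase of liver and red cells, the last enzyme of glycolysis, and its liver promoter is a classical target of the carbohydrate response factor ChREBP, encoded by Mlxipl. Pklr has a liver and an erythroid first exon and rat Pfkfb1 has liver and muscle forms from separate promoters. Which of these forms the probes measure was not given in the sources used here.

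On the rat assembly GRCr8, Gckr (gene 25658) lies at chr6:30765071-30795627 on the minus strand, Pklr (gene 24651) at chr2:176840779-176849637 on the plus strand and Pfkfb1 (gene 24638) at chrX:22936038-22989691 on the plus strand. RefSeq promoter windows of 300 bases, 250 before and 50 after a start site, were found for 3 of the 3 genes. The start site of the Pklr window lies 485 bases inside the annotated gene and that of Pfkfb1 6138 bases inside it, so for both genes the window belongs to a start other than the most upstream one. The 250 bases before the start site of Pklr (chr2:176841014-176841263, GRCr8, plus strand) are printed because Pklr and Mlxipl are both described over the diets below. Capitals mark, in order, a match to the carbohydrate response element form (CACGNG and CNCGTG with 5 bases between them), a match to the HNF1 form (GTTA and TTAAC with 4 bases between them) and a TATAAA box.
Pklr: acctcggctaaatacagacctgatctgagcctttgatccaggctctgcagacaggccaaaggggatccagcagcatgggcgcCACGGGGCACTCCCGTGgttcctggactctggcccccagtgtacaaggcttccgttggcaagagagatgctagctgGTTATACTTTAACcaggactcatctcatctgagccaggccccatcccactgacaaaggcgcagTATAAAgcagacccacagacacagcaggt

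The first match, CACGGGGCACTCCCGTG, begins 168 bases before the start, the second begins 92 bases and the TATAAA box 29 bases before it. Both strands were searched, and none of the 3 matches overlaps another. The first form occurs in 11 of 33469 rat promoter windows (0.0329%), the HNF1 form in 54 (0.161%) and TATAAA in 4760 (14.2%). The Gckr and Pfkfb1 windows hold none of the 3, and the shorter E-box CACGTG, present in 6.42% of the windows, is in none of the 3 genes' windows. The forms were chosen with the Pklr promoter known, and a match is a description of these letters and not a measured site.

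Values are normalized intensities, in arbitrary units, after quantile normalization of the 18 arrays of a tissue. Log2 changes come from limma, in which a change counts as past the test at an adjusted p under 0.05 over all 19791 genes. A probe counts as detected on an array when its deposited detection p-value is under 0.05, which held for 49.3% to 63.2% of the probes of an array. Adipocyte, myocyte and hepatocyte markers had their highest summed intensities in adipose tissue, in muscle and in liver. Marker sums and marker means are given after normalization of all 54 arrays together. The adipose HFrD pool without INS stood apart from the other adipose pools, with seminal vesicle and epididymis markers summing to 132277 to 140342, against 2641 to 2682 in the HFrD-NDGA pool and 134.2 to 170.6 in the chow pool. Fewer cells of a type and less RNA per cell cannot be told apart in such pooled tissue.

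In liver, Pfkfb1 rose 3.45-fold and Gckr 1.22-fold on HFrD against chow, and Pklr was higher on every HFrD array than on every chow array without passing the test. Across all genes, 16% passed the test between HFrD and chow, 15.2% between HFrD-NDGA and HFrD and 30.6% between HFrD-NDGA and chow. Of the 3 genes, 2 passed in the first comparison, 1 in the second and 1 in the third.

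**Figure D1:**
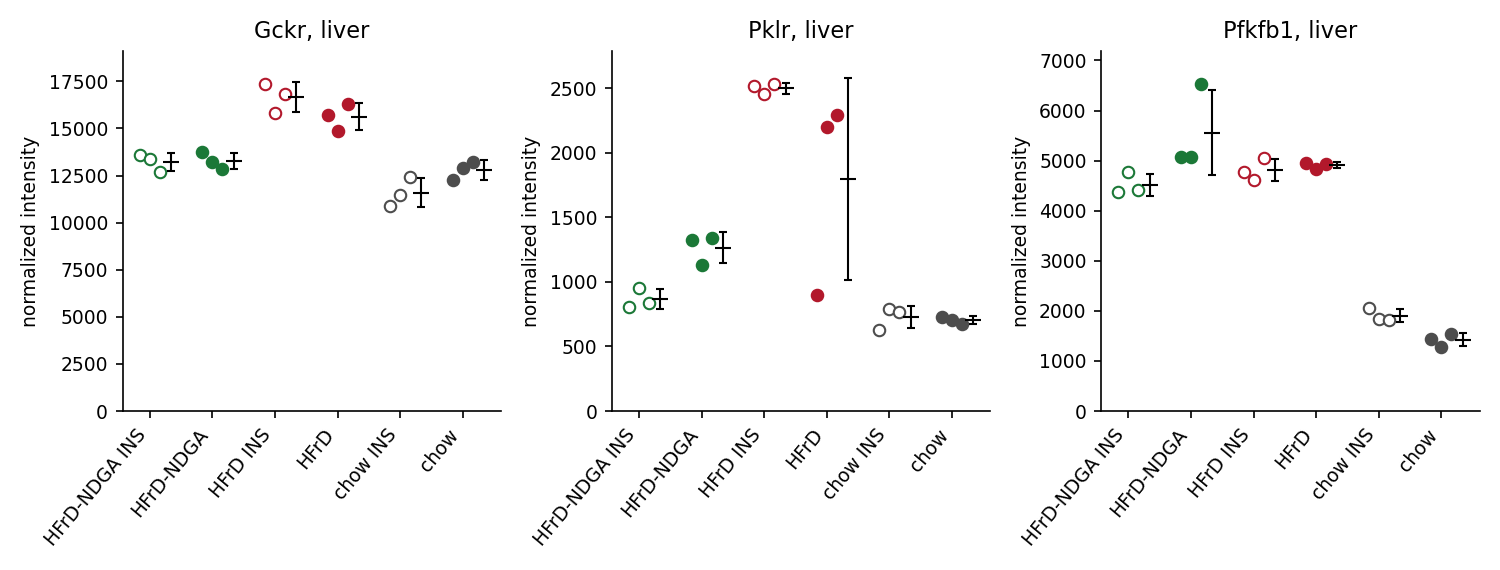
Normalized intensity of Gckr, Pklr and Pfkfb1 on each liver array (linear axes from 0), with open points for arrays whose label adds INS; bars give mean ± SD of 3 arrays. Pfkfb1 lies between 4368 and 6540 on all fructose arrays and between 1288 and 2063 on all chow arrays, and the single low Pklr point of HFrD is 898.8.

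Pfkfb1 had normalized intensities of 5065, 5075 and 6540 on the HFrD-NDGA liver arrays, 4951, 4834 and 4934 on the HFrD arrays and 1448, 1288 and 1536 on the chow arrays. All arrays of both fructose diets lay above all chow arrays. Expression was up-regulated 3.45-fold by HFrD (log2 change 1.79, SE 0.11, adjusted p = 2.13e-04) and 3.89-fold by HFrD-NDGA against chow (1.96, SE 0.11, adjusted p = 7.15e-05). NDGA added to the diet gave a change of 0.17 against HFrD (SE 0.11, adjusted p = 0.39), although the arrays of the HFrD-NDGA and HFrD groups did not overlap.

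Pklr had normalized intensities of 1326, 1130 and 1342 on the HFrD-NDGA liver arrays, 898.8, 2203 and 2291 on the HFrD arrays and 730.8, 706.1 and 673.6 on the chow arrays. One HFrD array, replicate 1, lay far below the other two HFrD arrays and below the HFrD-NDGA arrays, while over all genes this array correlated at 0.997 with the mean of the others. The change between HFrD and chow was 1.24 (2.35-fold, SE 0.35, adjusted p = 0.0589), and without HFrD replicate 1 it was 1.68 (SE 0.08, adjusted p = 5.46e-04). Between HFrD-NDGA and HFrD it was -0.39 (SE 0.35, adjusted p = 0.54), and without that array -0.83 (SE 0.08, adjusted p = 0.00413). Between HFrD-NDGA and chow it was 0.84 (SE 0.35, adjusted p = 0.117). In a fit of all 18 liver arrays, the changes of both fructose diets against chow passed the test (adjusted p = 0.00527 for HFrD and 0.0238 for HFrD-NDGA).

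Gckr, at 13736, 13231 and 12866 on the HFrD-NDGA liver arrays, 15700, 14881 and 16306 on the HFrD arrays and 12237, 12903 and 13231 on the chow arrays, is the brightest of the 3 probes in liver. The HFrD arrays lay above those of both other diets, and the HFrD-NDGA and chow arrays overlapped. HFrD raised it 1.22-fold (log2 change 0.29, SE 0.05, adjusted p = 0.00874), and HFrD-NDGA was 1.18-fold lower than HFrD (-0.23, SE 0.05, adjusted p = 0.0169). The first of these changes was 0.72 (adjusted p = 0.0532) when arrays were centred on their medians, and the second was -0.10 (adjusted p = 0.86). The second also missed the test without HFrD replicate 1, HFrD replicate 3 or HFrD-NDGA replicate 2 (highest adjusted p = 0.0625), and at -0.28 without scaling (adjusted p = 0.0675). HFrD-NDGA differed from chow by 0.05 (SE 0.05, adjusted p = 0.428).

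Red-cell markers moved with the liver HFrD pool: 5 of the 8 listed were measured, and their summed intensity was 722.0 to 851.7 on HFrD-NDGA arrays, 4408 to 4585 on HFrD arrays and 758.6 to 949.4 on chow arrays. Epb42 was not detected on any array of these 3 groups, and Alas2 and Ahsp were detected on all. In the HFrD pool with INS the sum was 855.1 to 979.9 and Pklr was at least as high, at 2452 to 2536. The part of red cells in the values of the HFrD pool without INS was not tested.

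The liver arrays with INS give a second set of 3 pools on the same diets. Here 11.5% of all genes passed the test between HFrD and chow, 17.6% between HFrD-NDGA and HFrD and 20.6% between HFrD-NDGA and chow. Of the 3 genes, 3 rose on HFrD and 2 fell with NDGA.

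Pklr had 809.2, 953.0 and 838.2 on the HFrD-NDGA INS arrays, 2513, 2452 and 2536 on the HFrD INS arrays and 630.0, 787.7 and 763.0 on the chow INS arrays. The HFrD INS arrays stood apart and close together, with no array of another diet near them. Pklr was up-regulated 3.46-fold by HFrD (log2 change 1.79, SE 0.26, adjusted p = 4.94e-04) and was 2.89-fold lower with NDGA than on HFrD (-1.53, SE 0.26, adjusted p = 0.00122). HFrD-NDGA differed from chow by 0.26 (SE 0.26, adjusted p = 0.562).

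Gckr had 13578, 13370 and 12700 on the HFrD-NDGA INS arrays, 17383, 15806 and 16804 on the HFrD INS arrays and 10896, 11461 and 12397 on the chow INS arrays. Neither fructose group overlapped chow. HFrD raised it by 0.53 (SE 0.05, adjusted p = 1.99e-05), and NDGA gave a lower level than HFrD (log2 change -0.33, SE 0.05, adjusted p = 7.15e-04). The rise was 0.47 (adjusted p = 0.209) with centred arrays, and the NDGA change was -0.25 (adjusted p = 0.117) without scaling. HFrD-NDGA was above chow by 0.19 (SE 0.05, adjusted p = 0.0224) but below it by -0.25 with centred arrays (adjusted p = 0.342), and this call was lost without any of 4 of the 6 arrays compared (HFrD-NDGA INS and chow INS replicates 1 and 2, highest adjusted p = 0.1).

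Pfkfb1 had 4368, 4764 and 4405 on the HFrD-NDGA INS arrays, 4764, 4614 and 5045 on the HFrD INS arrays and 2063, 1836 and 1817 on the chow INS arrays. As without INS, the fructose arrays did not overlap the chow arrays. The rise was 2.53-fold on HFrD (log2 change 1.34, SE 0.09, adjusted p = 5.44e-07) and 2.37-fold on HFrD-NDGA (1.25, SE 0.09, adjusted p = 7.12e-07). The change with NDGA against HFrD was -0.09 (SE 0.09, adjusted p = 0.587), and -0.49 with centred arrays (adjusted p = 0.0427).

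INS groups were also set against the groups of the same diet without INS, where 20.4% of all genes passed the liver test on HFrD-NDGA, 4.26% on HFrD and 12.4% on chow. Pfkfb1 was lower with INS on HFrD-NDGA (log2 change -0.29, SE 0.09, adjusted p = 0.0423) and higher with INS on chow (0.42, SE 0.09, adjusted p = 0.0158). The call on HFrD-NDGA was lost at -0.17 without HFrD-NDGA replicate 3 (adjusted p = 0.108), without HFrD-NDGA INS replicate 1 (-0.27, adjusted p = 0.122) or 3 (-0.28, adjusted p = 0.121) and without scaling (-0.15, adjusted p = 0.246), and that on chow at 0.36 without chow INS replicate 1 (adjusted p = 0.0682). On HFrD none of the 3 genes passed, and neither Gckr nor Pklr passed on any diet. The effect of HFrD-NDGA against chow on Pfkfb1 was smaller with INS, by -0.71 (SE 0.13, adjusted p = 0.00264), where 29.5% of all genes passed that test of the difference. Differences in the effect of HFrD against chow (5.17% of all genes passing) and of HFrD-NDGA against HFrD (15.3%) passed for none of the 3 genes in liver. For Pklr and NDGA against HFrD the difference was -1.14 (SE 0.37, adjusted p = 0.0558), and it passed without HFrD replicate 1 (-0.70, adjusted p = 0.00798), replicate 2 (-1.35, adjusted p = 0.0383) or replicate 3 (-1.37, adjusted p = 0.0254).

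In the order of liver levels, Gckr ran HFrD INS, HFrD, HFrD-NDGA, HFrD-NDGA INS, chow and chow INS, and only HFrD and HFrD-NDGA were neighbours without overlapping arrays. Pklr had the order HFrD INS, HFrD, HFrD-NDGA, HFrD-NDGA INS, chow INS and chow, with overlap between HFrD and HFrD-NDGA and between the chow groups. Pfkfb1 ran HFrD-NDGA, HFrD, HFrD INS, HFrD-NDGA INS, chow INS and chow, with overlap only among the middle groups, HFrD, HFrD INS and HFrD-NDGA INS. Over the 18 liver arrays, log2 values of Gckr and Pklr correlated at 0.84, of Pklr and Pfkfb1 at 0.67 and of Gckr and Pfkfb1 at 0.60, which describes arrays that share pools and diets.

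The other genes of the pathway in liver are described by lists chosen with earlier results of these data known. Of 18 measured enzymes of glycolysis and hexose phosphorylation, 3 were not above background between HFrD and chow, 2 rose, 1 fell and 12 did not pass (median change 0.09, against 0.00 over all genes). Gpi, glucose phosphate isomerase, rose by 0.88 (SE 0.06, adjusted p = 2.49e-04), Ldha, lactate dehydrogenase A, rose by 0.57 (SE 0.08, adjusted p = 0.00575), and Pfkm, the muscle phosphofructokinase, fell by 0.63 (SE 0.09, adjusted p = 0.00649). With NDGA against HFrD, 1 of the 18 rose and 1 fell (median -0.03): Aldoa by 0.40 (SE 0.09, adjusted p = 0.0328) and Pgk1 by -0.37 (SE 0.04, adjusted p = 0.00132).

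Pfkfb2, Pfkfb3 and Pfkfb4, the relatives of Pfkfb1 of heart, inducible and testis type, were measured by their own probes, and none of the 3 passed in any diet comparison of liver without INS (median change -0.16 for HFrD against chow). Pfkfb2 has 2 probes, of which the brighter was fitted, and in liver they differed in direction between HFrD and chow (-0.50 for the brighter and 0.84 for the other, which was not detected on any chow array). Pkm, the pyruvate kinase of muscle and most other tissues, was near background in liver at 85.2 ± 7.6 on HFrD and 70.1 ± 4.7 on chow (SD, n = 3 each), with a change of 0.28 (SE 0.18, adjusted p = 0.35).

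Of the 11 measured genes of pyruvate entry to mitochondria, 8 rose and 0 fell in liver on HFrD against chow (median change 0.48, against 0.00 over all genes). The largest rises were those of Pdk1 (1.73, SE 0.08, adjusted p = 5.42e-05) and Pdk4 (1.14, SE 0.07, adjusted p = 1.47e-04), kinases that inactivate pyruvate dehydrogenase, and of Pdhb, a subunit of that enzyme (0.99, SE 0.05, adjusted p = 6.91e-05). With NDGA against HFrD, 2 rose and 3 fell (median -0.09), Mpc1 of the mitochondrial pyruvate carrier falling most, by 0.96 (SE 0.04, adjusted p = 1.43e-05). Of 6 measured genes of gluconeogenesis, 1 was not above background and 5 did not pass between HFrD and chow (median 0.05). With NDGA 2 rose (median -0.06), Fbp2, the muscle fructose 1,6-bisphosphatase, at least 11.1-fold (adjusted p = 4.58e-06, not well above background on any HFrD array) and G6pc1, the catalytic subunit of glucose 6-phosphatase, by 0.42 (SE 0.11, adjusted p = 0.0481).

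Among 5 transcription factors known for the Pklr promoter in liver, 3 rose and 0 fell on HFrD against chow (median 0.26), and 1 rose and 1 fell with NDGA against HFrD (median -0.11). Mlxipl had 1765 ± 105.7 on HFrD-NDGA, 2355 ± 37.3 on HFrD and 1165 ± 70.3 on chow (SD, n = 3 each). It rose by 1.02 on HFrD (SE 0.06, adjusted p = 1.35e-04) and fell by 0.42 with NDGA (SE 0.06, adjusted p = 0.00438). Srebf1, the lipogenic factor SREBP-1, rose by 0.72 on HFrD (SE 0.08, adjusted p = 0.00204), Mlx, the partner of ChREBP, by 0.26 (SE 0.07, adjusted p = 0.0474), and Hnf4a, a hepatocyte nuclear receptor, rose by 0.45 with NDGA (SE 0.08, adjusted p = 0.0117).

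Of 13 measured ChREBP targets of carbohydrate and fat synthesis, 11 rose and 0 fell on HFrD (median 1.52, against 0.00 over all genes), led by Scd1, stearoyl-CoA desaturase (3.64, SE 0.11, adjusted p = 1.22e-05), Me1, malic enzyme (3.18, SE 0.23, adjusted p = 4.24e-04), and Fasn, fatty acid synthase (3.13, SE 0.08, adjusted p = 5.29e-06). With NDGA 3 rose and 6 fell (median -0.34), Fasn by -1.12 (SE 0.08, adjusted p = 2.34e-04) and the hexose transporter gene Slc2a2 by -0.94 (SE 0.12, adjusted p = 0.00312). Elovl6, a fatty acid elongase of the list, was higher with NDGA than on HFrD on both of its probes (0.58 and 0.55). These HFrD and NDGA comparisons share the HFrD arrays.

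**Figure D2:**
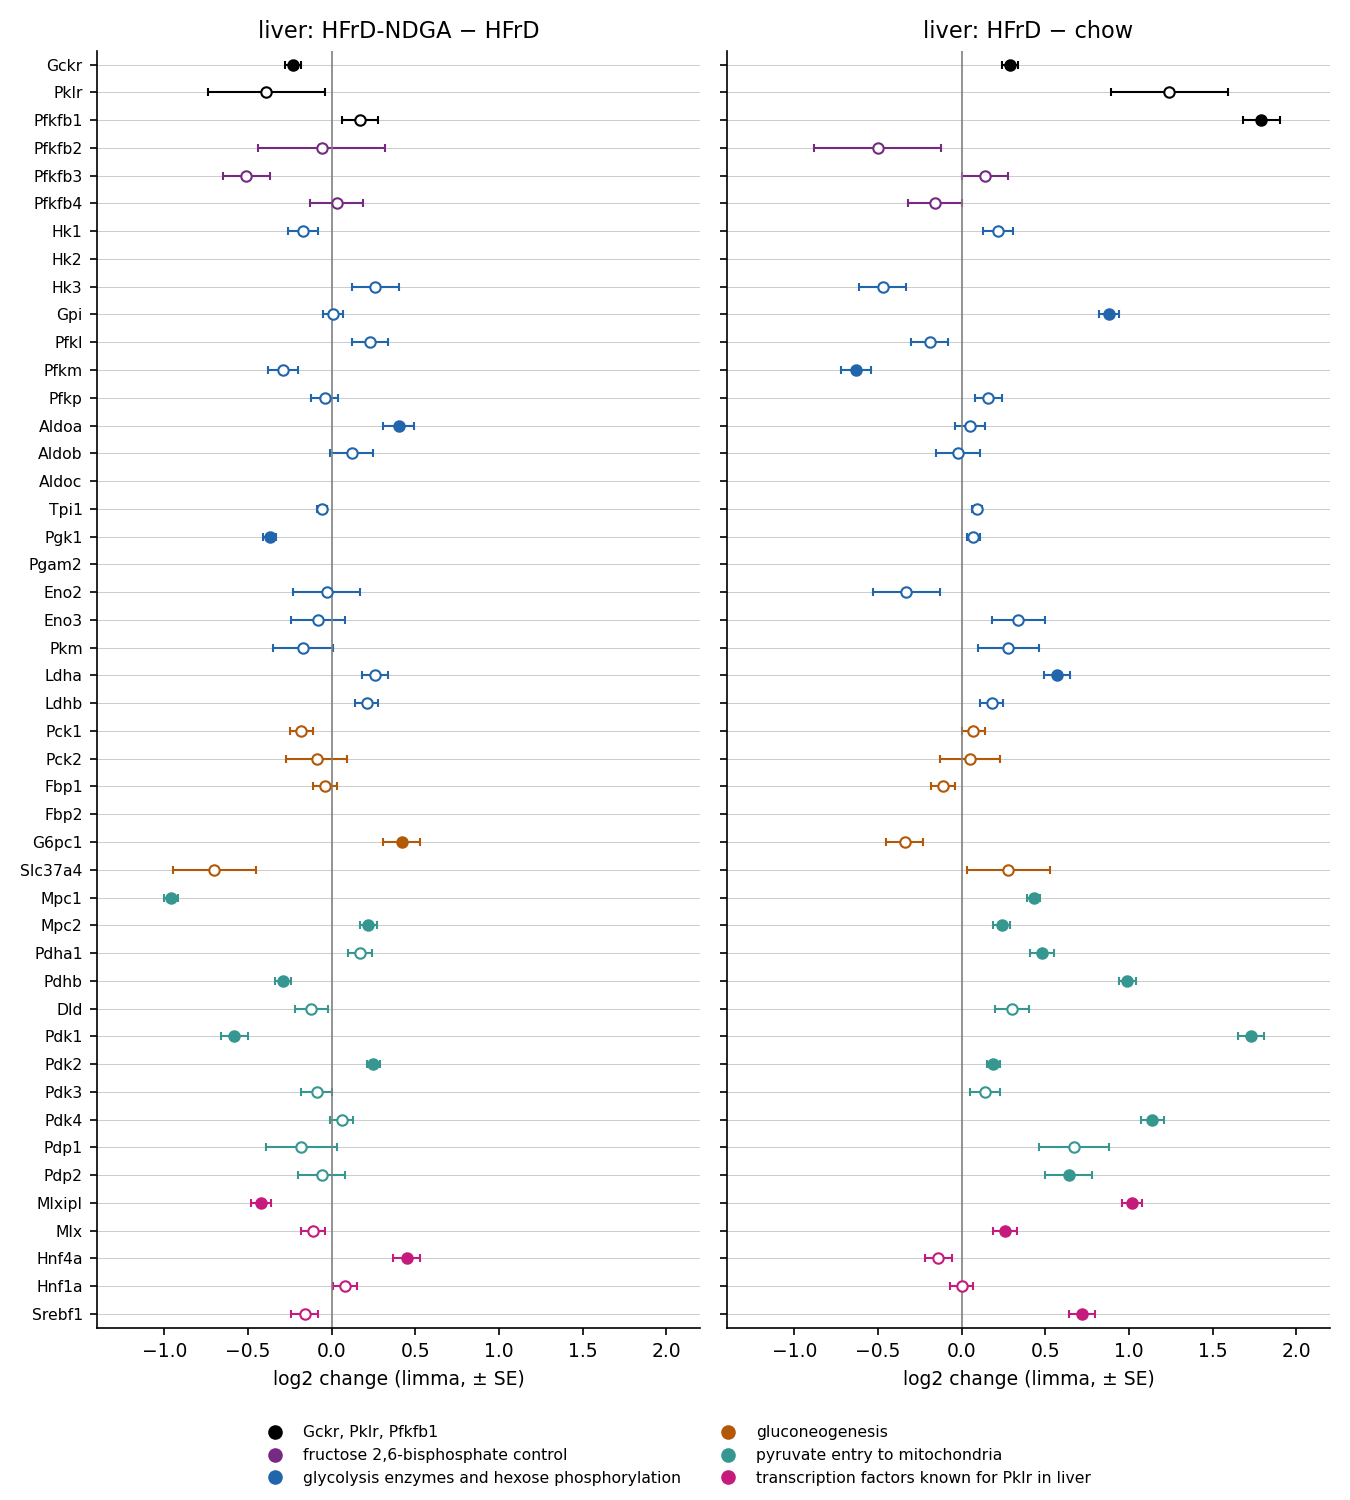
Log2 change ± SE in liver (limma, 3 arrays per group) of the 3 genes and of 5 lists around them, for HFrD-NDGA against HFrD and for HFrD against chow; filled points passed the test, and genes not above background in a group have no point. The ChREBP targets, some with larger changes (Scd1, 3.64), are not drawn. Pfkfb1 lies at 1.79 and Pdk1 at 1.73 for HFrD against chow, while Pfkfb2 (its brighter probe), Pfkfb3 and Pfkfb4 are open points on both sides.

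In gastrocnemius muscle, Pfkfb1 fell on HFrD on the arrays without INS and was higher on HFrD-NDGA than on HFrD. Over all genes, 35.6% passed the test between HFrD and chow, 33.9% between HFrD-NDGA and HFrD and 5.87% between HFrD-NDGA and chow. Gckr was near or below background, and Pklr was low, between 120.4 and 197.0 on all 18 muscle arrays.

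Pfkfb1 had 6714, 5516 and 5131 on the HFrD-NDGA muscle arrays, 2858, 2760 and 2656 on the HFrD arrays and 4983, 4804 and 5083 on the chow arrays. The HFrD arrays were the lowest of all 18 muscle arrays. Expression was 1.8-fold lower on HFrD than on chow (log2 change -0.85, SE 0.10, adjusted p = 7.02e-04) and 2.09-fold higher on HFrD-NDGA than on HFrD (1.06, SE 0.10, adjusted p = 2.66e-04). HFrD-NDGA differed from chow by 0.21 (SE 0.10, adjusted p = 0.279).

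With INS, Pfkfb1 had 6828, 6467 and 6493 on the HFrD-NDGA muscle arrays, 6771, 6797 and 7008 on the HFrD arrays and 4682, 4838 and 4584 on the chow arrays. Here the HFrD arrays lay above the chow arrays, the reverse of the arrays without INS. HFrD was 1.46-fold higher than chow (0.55, SE 0.07, adjusted p = 1.04e-04), HFrD-NDGA 1.4-fold higher than chow (0.49, SE 0.07, adjusted p = 7.01e-04), and HFrD-NDGA differed from HFrD by -0.06 (SE 0.07, adjusted p = 0.764). Over all genes 23.7% passed for HFrD against chow, 12.5% for HFrD-NDGA against chow and 15.4% for HFrD-NDGA against HFrD. On HFrD, INS against no INS gave a 2.49-fold difference in Pfkfb1 (1.31, SE 0.07, adjusted p = 8.37e-09), where 41.4% of all genes passed, while on HFrD-NDGA the difference was 0.20 (SE 0.07, adjusted p = 0.0879, 16.2% of all genes passing) and on chow it did not pass (adjusted p = 0.575, 22.1% passing). Without HFrD-NDGA replicate 1 the difference on HFrD-NDGA was 0.31 (adjusted p = 2.74e-04). The effect of HFrD against chow differed between INS and no INS by 1.39 (SE 0.10, adjusted p = 1.55e-07, 40.2% of all genes passing) and that of NDGA against HFrD by -1.12 (SE 0.10, adjusted p = 1.66e-06, 36.5%), whereas that of HFrD-NDGA against chow did not pass (adjusted p = 0.111, 11.8%).

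The muscle HFrD pool without INS also carried more macrophage marker signal, with all 6 listed markers detected on all its arrays and a summed intensity of 10457 to 11105. The sum was 4181 to 4766 on HFrD-NDGA, 2600 to 2885 on HFrD INS and 2842 to 2893 on chow arrays. Skeletal myocyte markers summed to 595787 to 609858 on HFrD-NDGA, 574262 to 588447 on HFrD and 594059 to 608416 on chow. The part of cell composition in the Pfkfb1 values was not tested.

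Pklr had 197.0, 161.8 and 178.7 on the HFrD-NDGA muscle arrays, 143.1, 140.8 and 127.9 on the HFrD arrays and 179.9, 144.7 and 189.9 on the chow arrays. The HFrD arrays lay below the arrays of both other diets, yet neither change passed the test (HFrD against chow -0.31, SE 0.12, adjusted p = 0.0915; HFrD-NDGA against HFrD 0.38, SE 0.12, adjusted p = 0.0512). Without chow replicate 2 the first was -0.43 (adjusted p = 0.0203). HFrD-NDGA differed from chow by 0.07 (SE 0.12, adjusted p = 0.895). On the INS arrays Pklr ran from 120.4 to 195.7 with overlapping diets and none of the 3 diet comparisons passed. The red-cell marker sum in muscle was 1699 to 1903 on HFrD-NDGA, 1343 to 1502 on HFrD and 466.9 to 524.5 on chow arrays. On HFrD INS arrays it was 443.1 to 459.4. The part of red cells in the muscle Pklr values was not tested.

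Gckr was detected on 3 of 3 HFrD-NDGA muscle arrays, at 93.8, 89.3 and 110.3, and on none of the other 15 muscle arrays, where it was 41.3 to 74.1. It was at least 1.48-fold higher on HFrD-NDGA than on HFrD (adjusted p = 4.02e-04), and at least 1.21-fold higher than on chow without passing the test (adjusted p = 0.0652). On HFrD-NDGA it was at least 1.23-fold lower with INS than without (adjusted p = 2.51e-06). Hepatocyte markers were also highest in this pool, with 9 of 10 detected on all its arrays and a sum of 37338 to 38418. The sum was 6968 to 7296 on HFrD-NDGA INS arrays, 12502 to 12777 on HFrD arrays and 24698 to 26684 on chow arrays. Alb, the albumin gene, had a geometric mean of 17942 on HFrD-NDGA, 1602 on HFrD and 8906 on chow. The part of liver-type RNA in the muscle Gckr signal was not tested.

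Among the relatives in muscle, Pfkfb4 followed the direction of Pfkfb1 on the arrays without INS, at 414.2 ± 20.2 on HFrD-NDGA, 225.6 ± 4.7 on HFrD and 369.7 ± 21.5 on chow (SD, n = 3 each). It fell by 0.71 on HFrD (SE 0.05, adjusted p = 9.21e-05) and rose by 0.88 with NDGA (SE 0.05, adjusted p = 4.16e-05). On the INS arrays Pfkfb4 was higher on HFrD than on chow (0.46, SE 0.06, adjusted p = 5.35e-05) and lower on HFrD-NDGA than on HFrD (-0.34, SE 0.06, adjusted p = 9.95e-04). Pkm, without INS at 10791 ± 421.4 on HFrD-NDGA, 7489 ± 472.8 on HFrD and 11857 ± 422.4 on chow (SD, n = 3 each), fell by 0.66 on HFrD (SE 0.05, adjusted p = 1.48e-04) and rose by 0.53 with NDGA (SE 0.05, adjusted p = 4.40e-04). On the INS arrays these changes of Pkm were 0.77 (SE 0.07, adjusted p = 4.39e-06) and -0.23 (SE 0.07, adjusted p = 0.0458), the reverse in both. Of the 18 glycolytic genes, 4 rose and 6 fell on HFrD against chow without INS (median -0.19, against -0.01 over all genes), and 8 rose and 3 fell with NDGA against HFrD (median 0.24, against 0.00).

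**Figure D3:**
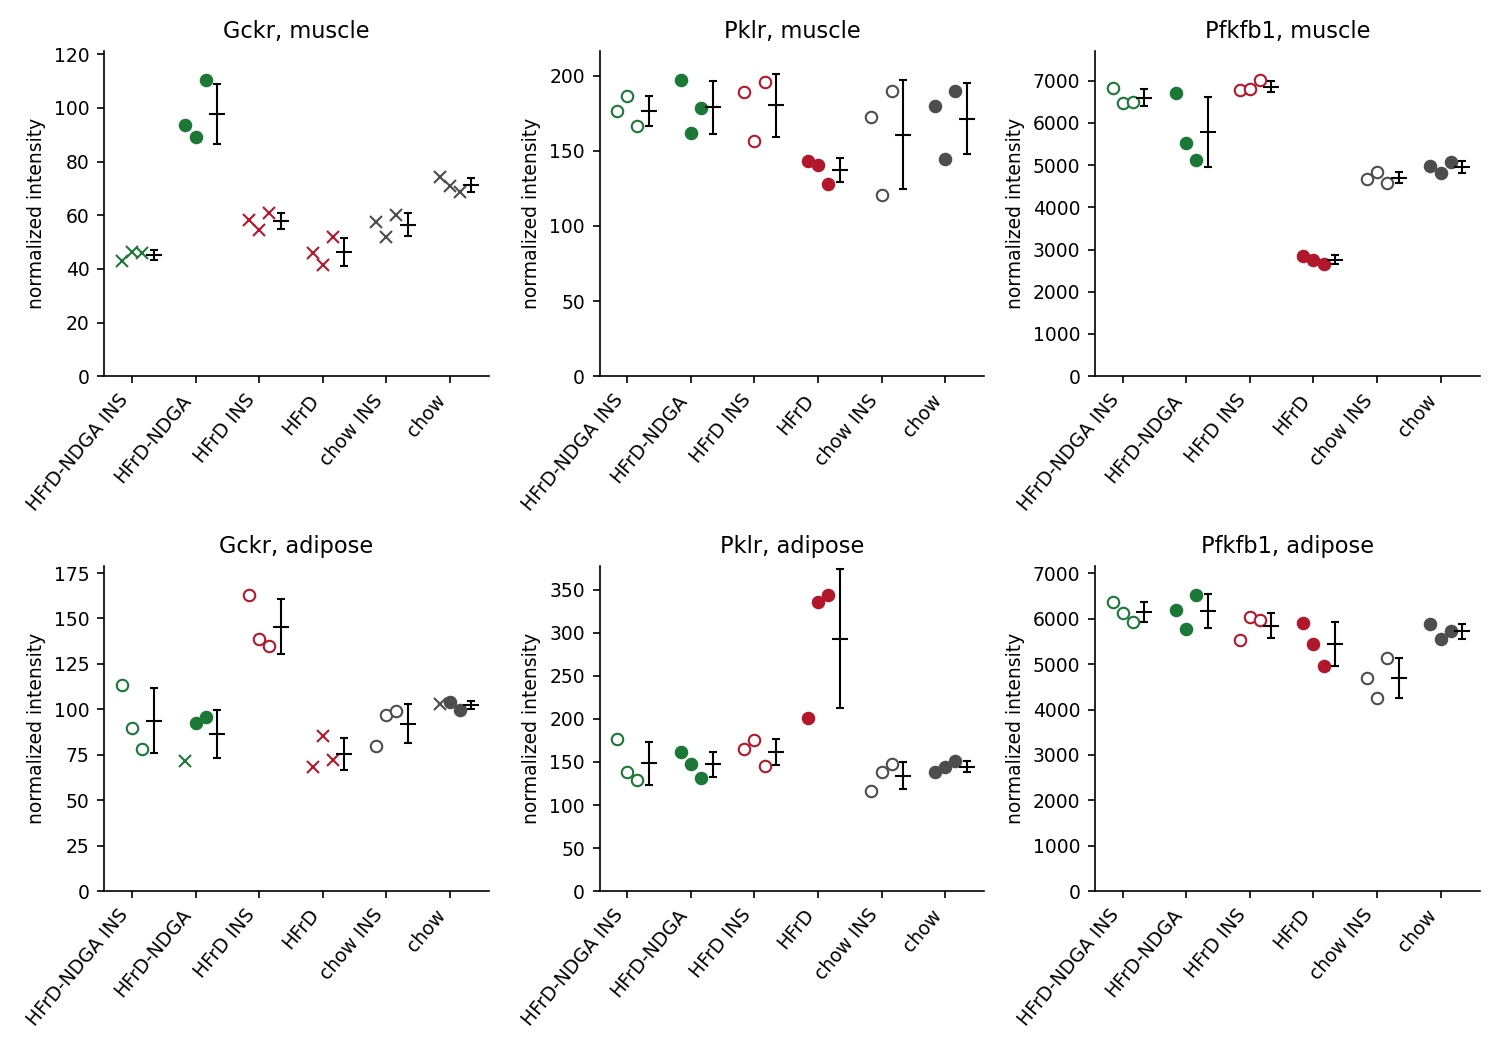
Normalized intensity on each muscle and adipose array (linear axes from 0), with open points for INS, crosses for arrays on which the probe was not detected, and bars for mean ± SD of 3 arrays. The muscle HFrD arrays of Pfkfb1 (2656 to 2858) lie below all other muscle arrays, and 2 of the 3 adipose HFrD arrays of Pklr (335.9 and 343.9) lie well above the third (200.7) and all other adipose arrays.

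In epididymal adipose tissue without INS, Pklr was higher on HFrD than on either other diet, whereas Pfkfb1 passed the test in no diet comparison. With INS, Pklr passed in none, and Pfkfb1 was higher on both fructose diets than on chow. On the arrays without INS, 51.2% of all genes passed the test between HFrD and chow, 48.1% between HFrD-NDGA and HFrD and 20.2% between HFrD-NDGA and chow.

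Pklr had 161.3, 148.2 and 131.9 on the HFrD-NDGA adipose arrays, 200.7, 335.9 and 343.9 on the HFrD arrays and 138.2, 143.9 and 150.9 on the chow arrays. All HFrD arrays were above all others, replicate 1 by the smallest margin. HFrD was 1.98-fold higher than chow (log2 change 0.98, SE 0.21, adjusted p = 0.00709), HFrD-NDGA was 1.94-fold lower than HFrD (-0.96, SE 0.21, adjusted p = 0.00837), and HFrD-NDGA differed from chow by 0.02 (SE 0.21, adjusted p = 1). On the INS arrays Pklr ran from 116.3 to 177.0 over the 3 diets, with overlap and no comparison past the test (HFrD against chow 0.28, SE 0.18, adjusted p = 0.344, and 0.63 without scaling, adjusted p = 0.0248). On HFrD, Pklr was 1.77-fold lower with INS than without (-0.82, SE 0.18, adjusted p = 0.00248), where 46.6% of all genes passed.

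The adipose HFrD pool in which Pklr was high also had more red-cell marker signal, with 5 of 5 measured markers detected on all arrays and a sum of 62020 to 64964. The sum was 6161 to 6850 on HFrD-NDGA, 5529 to 6378 on HFrD INS and 4406 to 4846 on chow arrays, with Epb42 not detected on any of these. Alas2, the erythroid enzyme of heme synthesis, had a geometric mean of 35627 on HFrD and 2975 on chow. The seminal vesicle and epididymis sum of 132277 to 140342 stands in the same pool, against 2641 to 2682 on HFrD-NDGA. The part of red cells or of these other tissues in the Pklr values was not tested.

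Pfkfb1 had 6200, 5773 and 6519 on the HFrD-NDGA adipose arrays, 5913, 5445 and 4950 on the HFrD arrays and 5886, 5559 and 5727 on the chow arrays. The 3 groups overlapped. Skeletal myocyte markers were highest in the chow pool, with all 10 detected on its arrays and a sum of 38154 to 39248, against 1560 to 1719 on HFrD-NDGA and 6537 to 7133 on HFrD arrays. The part of muscle-type RNA in the adipose chow values of Pfkfb1 was not tested. The change was -0.08 for HFrD against chow (SE 0.07, adjusted p = 0.433), 0.18 for HFrD-NDGA against HFrD (SE 0.07, adjusted p = 0.0792) and 0.11 for HFrD-NDGA against chow (SE 0.07, adjusted p = 0.389). The second passed at 0.25 without HFrD replicate 1 (adjusted p = 0.0259), and with arrays centred on their medians the first was -0.61 (adjusted p = 0.0104), the second 0.46 (adjusted p = 0.0405) and the third -0.15 (adjusted p = 0.533).

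With INS, Pfkfb1 had 6378, 6118 and 5938 on the HFrD-NDGA adipose arrays, 5529, 6040 and 5982 on the HFrD arrays and 4698, 4250 and 5146 on the chow arrays. Both fructose groups lay above the chow arrays. HFrD was 1.25-fold higher than chow (0.32, SE 0.07, adjusted p = 0.00658), a call lost with centred arrays (0.23, adjusted p = 0.339), and HFrD-NDGA was 1.31-fold higher than chow (0.39, SE 0.07, adjusted p = 0.00123). The share of all genes passing was 24.1% for HFrD against chow, 26% for HFrD-NDGA against HFrD and 31.7% for HFrD-NDGA against chow. On chow, Pfkfb1 was lower with INS than without (-0.29, SE 0.07, adjusted p = 0.0134, 22.1% of all genes passing). This call was lost without chow replicate 1 (-0.27, adjusted p = 0.0523), without chow INS replicate 2 (-0.22, adjusted p = 0.0564) and without scaling (-0.32, adjusted p = 0.083). Myocyte markers summed to 4964 to 5104 on the chow INS arrays and 38154 to 39248 on the chow arrays, and macrophage markers to 35372 to 36354 on chow INS and 20575 to 21899 on chow arrays, and their part in this difference was not tested. On HFrD-NDGA, where 8.22% of all genes passed between INS and no INS, none of the 3 genes did.

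Gckr was dim in adipose tissue, at 71.3, 92.5 and 95.9 on HFrD-NDGA arrays, 68.3, 85.2 and 72.1 on HFrD arrays and 102.8, 103.9 and 99.7 on chow arrays, detected on 2, 0 and 2 of 3 arrays. HFrD against chow passed the test, with Gckr lower on HFrD. No fold is given for this HFrD group against either other diet, because the lower bound did not reach a difference. With INS it was detected on all 9 arrays, with log2 normalized intensities of 6.82, 6.49 and 6.29 on HFrD-NDGA, 7.35, 7.11 and 7.08 on HFrD and 6.32, 6.60 and 6.63 on chow. The HFrD INS arrays were the highest of the tissue. Gckr was 1.58-fold higher on HFrD INS than on chow INS (0.66, SE 0.15, adjusted p = 0.00505), 1.57-fold lower on HFrD-NDGA INS than on HFrD INS (-0.65, SE 0.15, adjusted p = 0.00609), and at least 1.31-fold higher with INS than without on HFrD (adjusted p = 1.47e-04). Hepatocyte markers were highest in the same pool, with 10 of 10 detected and a sum of 70442 to 74624, against 44076 to 46301 on HFrD-NDGA INS, 45313 to 51298 on chow INS and 47361 to 50609 on HFrD without INS. The part of liver-type RNA in these values was not tested.

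Diet effects differed between INS and no INS in adipose tissue for 43.4% of all genes in HFrD against chow, 37.1% in HFrD-NDGA against HFrD and 18.2% in HFrD-NDGA against chow. For HFrD against chow the difference was -0.71 for Pklr (SE 0.26, adjusted p = 0.0431) and 0.40 for Pfkfb1 (SE 0.11, adjusted p = 0.00787). The Pklr difference was lost without any of 9 of the 12 arrays compared, at values down to -0.57 (highest adjusted p = 0.107). No difference is given for Gckr where it includes the HFrD group without INS, on whose arrays it was not detected. For HFrD-NDGA against chow none of the 3 passed.

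Pfkfb4 in adipose tissue without INS had 438.2 ± 70.6 on HFrD-NDGA, 4086 ± 87.8 on HFrD and 314.6 ± 50.7 on chow (SD, n = 3 each). Its change was 3.71 for HFrD against chow (SE 0.15, adjusted p = 4.81e-06) and -3.23 for HFrD-NDGA against HFrD (SE 0.15, adjusted p = 1.01e-05). On the HFrD INS arrays it had only 468.9 ± 32.7. With INS the same changes of Pfkfb4 were 0.53 (SE 0.15, adjusted p = 0.0189) and -0.26 (SE 0.15, adjusted p = 0.244). The 2 probes of Pfkfb2 went in opposite directions in both comparisons, so no change is given for it. The high Pfkfb4 values stand in the pool with the seminal vesicle and red-cell markers, and the part of those tissues in them was not tested. Pkm fell by 0.41 with NDGA (SE 0.04, adjusted p = 3.23e-04).

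**Figure D4:**
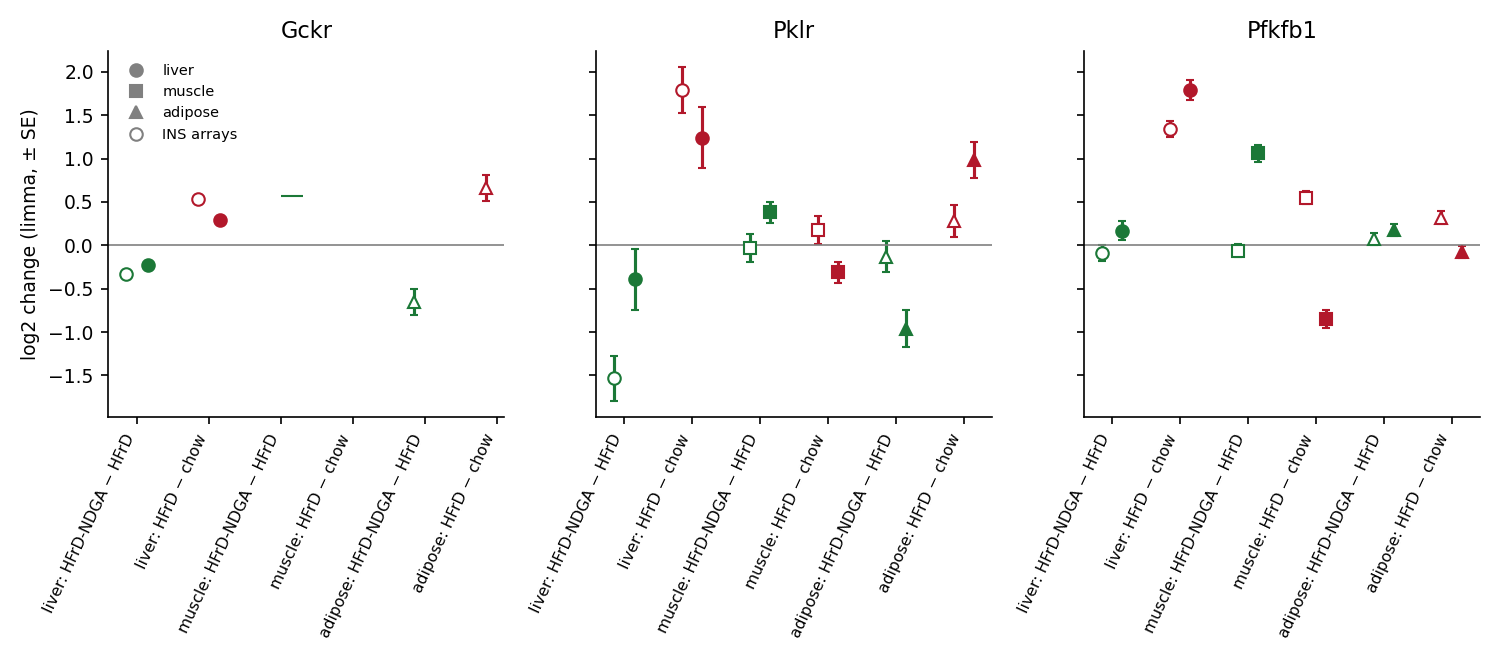
Log2 change ± SE (limma, 3 arrays per group) of each gene for HFrD-NDGA against HFrD (green) and HFrD against chow (red) in 3 tissues, open for INS arrays; a dash is a lower bound, and pairs with no fold have no point. Pfkfb1 lies at 1.79 and 1.34 for HFrD against chow in liver and at -0.85 and 0.55 in muscle, without and with INS.

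Levels of a gene in the 3 tissues were compared after quantile normalization of all 54 arrays together. On chow, 69.5% of all genes passed between liver and muscle, 68.6% between liver and adipose tissue and 65% between adipose tissue and muscle. Gckr was highest in liver, with 10808, 11373 and 11650 on the chow liver arrays, 84.2, 85.1 and 81.7 on the adipose arrays and 96.3, 92.3 and 89.3 on the muscle arrays, none of the muscle ones detected and 2 of the 3 adipose ones detected. It was 134.7-fold higher in liver than in adipose tissue (log2 difference 7.07, SE 0.10, adjusted p = 3.05e-22) and at least 107.8-fold higher than in muscle (adjusted p = 3.60e-22).

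Pklr had 837.5, 809.6 and 772.9 on the chow liver arrays, 111.2, 115.4 and 120.8 on the adipose arrays and 234.1, 188.0 and 247.4 on the muscle arrays, and the tissues did not overlap. Liver was 3.64-fold above muscle (1.86, SE 0.23, adjusted p = 5.33e-07) and 6.97-fold above adipose tissue (2.80, SE 0.23, adjusted p = 1.40e-09), and adipose tissue was 1.91-fold below muscle (-0.94, SE 0.23, adjusted p = 0.0015), a call lost without scaling (-0.58, adjusted p = 0.0722).

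Pfkfb1 went the other way on chow, with 1608, 1445 and 1695 on the liver arrays, 5155, 4840 and 5002 on the adipose arrays and 5983, 5764 and 6097 on the muscle arrays. Liver was 3.77-fold below muscle (-1.91, SE 0.10, adjusted p = 3.17e-13) and 3.16-fold below adipose tissue (-1.66, SE 0.10, adjusted p = 3.93e-12). Adipose tissue was below muscle by -0.25 (SE 0.10, adjusted p = 0.0283), above it by 0.06 without scaling (adjusted p = 0.723), and the call was lost without adipose chow replicate 2 or 3 or muscle chow replicate 1 or 3 (highest adjusted p = 0.0826). The adipose chow pool is the one with the high myocyte marker sum, the part of which in this difference was not tested. On HFrD without INS the liver arrays, at 4838, 4734 and 4821, lay above the muscle arrays, at 3517, 3399 and 3271. With INS the order was the opposite, with HFrD liver arrays at 4671, 4550 and 4923 and HFrD muscle arrays at 8135, 8168 and 8423.

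**Figure D5:**
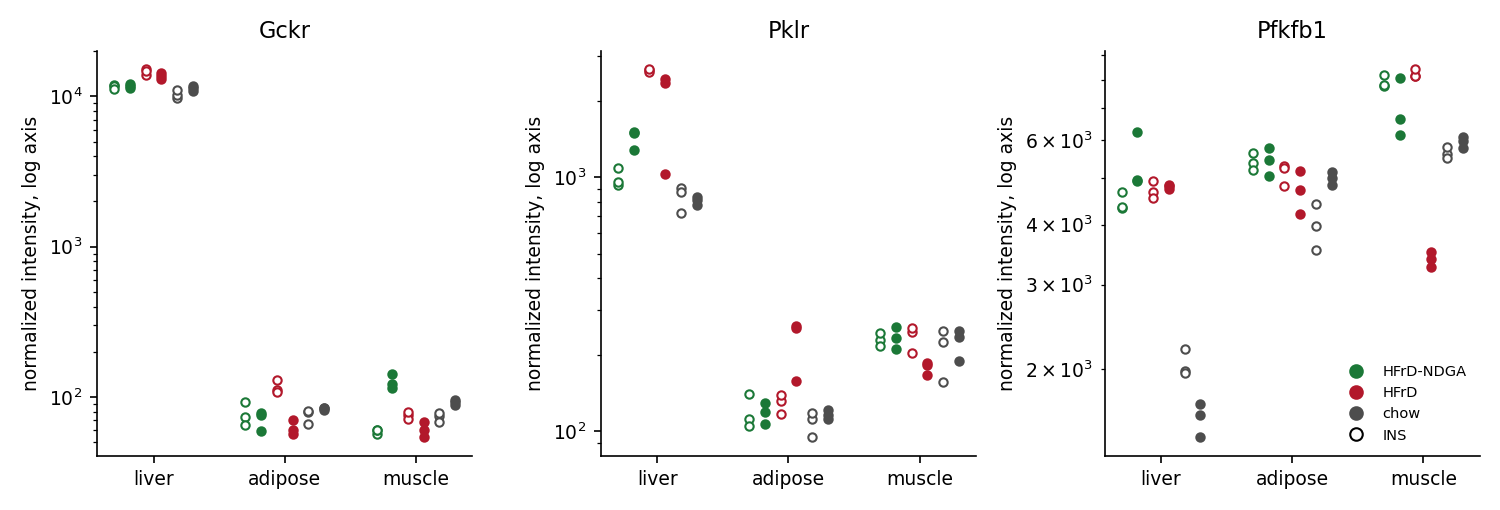
Normalized intensity of each gene on all 54 arrays, normalized together, by tissue (log axes), coloured by diet and open for INS. Gckr separates liver (9656 to 15129) from both other tissues, while the lowest Pfkfb1 values are those of the liver chow arrays (1445 to 1695).

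Over all 18 groups, the 6 liver groups ranked first for Gckr and for Pklr, and no array of another tissue reached them. Pfkfb1 was highest in the muscle HFrD INS group, which overlapped the muscle HFrD-NDGA INS group, and lowest in the 2 liver chow groups, which overlapped no neighbour.

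On the arrays without INS, changes between diets differed between tissues. Such differences were not computed on the INS arrays, where the muscle change of Pfkfb1 on HFrD against chow had the opposite sign. The HFrD pools without INS carried the red-cell (liver, muscle, adipose), macrophage (muscle) and seminal vesicle (adipose) marker signal described above. The part of that signal in these differences was not tested. For HFrD against chow, 36.6% of all genes differed between liver and muscle, 49.9% between liver and adipose tissue and 46.5% between muscle and adipose tissue. The Pfkfb1 effect was 2.41 higher in liver than in muscle on the log2 scale (SE 0.14, adjusted p = 4.07e-11), 1.69 higher in liver than in adipose tissue (SE 0.14, adjusted p = 7.66e-09) and -0.72 in muscle against adipose tissue (SE 0.14, adjusted p = 2.04e-04). The Pklr effect was 1.47 higher in liver than in muscle (SE 0.33, adjusted p = 0.00146) and did not differ past the test between liver and adipose tissue (adjusted p = 0.603). For HFrD-NDGA against HFrD, where 33.5% of all genes differed between liver and muscle, 37.4% between liver and adipose tissue and 45% between muscle and adipose tissue, the Pfkfb1 effect was lower in liver than in muscle by -0.87 (SE 0.14, adjusted p = 4.40e-05).

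By Pearson correlation of log2 values over the 18 liver arrays, among 9646 genes detected on all of them, the genes most like Gckr were Enpep (0.935), Vkorc1 (0.928), Fabp5 (0.909), Niban3 (0.908) and Fads2 (0.907). Those most like Pklr were Sult2b1 (0.913), Fads2 (0.911), Kdm4c (0.909), Tmem9b (0.901) and Lpin1 (0.889), and those most like Pfkfb1 were Lhx8 (0.985), C19h16orf87 (0.984), LOC685203 (0.979), Cadm1 (0.962) and Eef1e1 (0.956). Over the 18 group means of all tissues, among 14071 genes, Khk, Slc17a2, Sema4g, Serpinf2 and Bbox1 (0.999 each) were most like Gckr, and Trnt1 (0.901), Me1 (0.886), Nup37 (0.844), Banp (0.828) and Klf9 (0.822) most like Pfkfb1. For Pklr these were LOC501194 (0.981), Sds (0.978), Paqr9 (0.977), LOC100363393 (0.973) and LOC681820 (0.970). The points share pools, diets and tissues, and the correlations are descriptions without a test.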

How the data were processed

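RNA of each tissue and group was pooled, amplified and labelled with Cy5 by the authors and hybridized to Rat OneArray v1, with 3 repeat arrays per pool. The deposited table holds intensity values on the linear scale, with background already subtracted and no scaling between arrays, although its name calls it normalized. Each spot also has a p-value of detection deposited by the authors, the method of which is not given in the sources used here, and a deposited flag score, which was 0 on every spot of the 3 genes. A second deposited table of intensity values was equal in all 1315332 values and was not used further. The methods name normalization between arrays and log2 transformation, which were therefore added here.

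Intensities of the 18 arrays of a tissue (all 54 arrays for comparisons between tissues) were brought to common quantiles (limma 3.58.1, R 4.3.3), floored at 16 and taken to log2. Promoter windows were read and figures drawn with Python 3.11.15 and matplotlib 3.10.9. Of 24358 probes, 1913 carry no symbol and were left out, 1175 carry several and were fitted under their joint name, and a gene with several probes took the one with the highest mean. Symbols were updated through the GRCr8 gene table. Diet comparisons used lmFit and eBayes on the 9 arrays of a tissue without INS, INS comparisons used its 18 arrays and tissue comparisons used 27 arrays, with Benjamini-Hochberg adjustment over 19791 genes. The code was tested on simulated data. Where the dimmer group was not detected on any array, the fold is a lower bound against the dimmest detected probe of each of its arrays. No fold is given where the brighter group was not detected, or where the bound did not reach a difference in that direction. A difference between 2 effects is given only where each of its 4 groups was detected on some array. The number of arrays limits the precision, and differences between rats were not measured.

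The genes followed, the pathway and marker lists, and the genes named from them (those with the largest changes past the test in the diet comparisons, and the relatives Pkm, Pfkfb2, Pfkfb3 and Pfkfb4) were chosen with earlier results of these data known. The listed genes Hkdc1, Gapdh, Pgam1, Eno1, Tigar, Pcx, Dlat and Pnpla3 and some of the listed markers were not analysed here. Between INS and no INS and between tissues, alternatives were run for comparisons at an adjusted p under 0.1. Alternatives were centring on array medians, no scaling, a floor of 32, an offset of 16, a filter on detection, the mean of all probes, other sets of arrays in the normalization or the fit, the 2-fold threshold of the methods, and each array left out.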

Additional observations from a re-analysis of the deposited data

Results flagged for a closer look

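Between arrays with and without INS, 6 diet effects of Pklr and Pfkfb1 differed past the test (limma, adjusted p under 0.05 over all genes, highest adjusted p = 0.0431). Each is given as the effect with INS minus that without, on the log2 scale. Gckr differences that passed are not counted, because each includes a group on whose arrays its probe was not detected. Across the comparisons of this kind, 5.17% to 43.4% of all genes passed, detected or not, and the count of 6 was not tested against these shares. In liver the effect of HFrD-NDGA against chow on Pfkfb1 differed (-0.71, 29.5% of all genes passing). In muscle the effect on Pfkfb1 differed for HFrD against chow (1.39, 40.2%) and for HFrD-NDGA against HFrD (-1.12, 36.5%). In adipose tissue the effect of HFrD against chow differed for Pklr (-0.71) and Pfkfb1 (0.40), where 43.4% of all genes passed. The adipose effect of HFrD-NDGA against HFrD differed for Pklr (0.83, 37.1%). The adipose Pklr difference for NDGA was lost without any of 5 single arrays, HFrD replicates 2 and 3, HFrD INS replicate 3, HFrD-NDGA replicate 3 and HFrD-NDGA INS replicate 1 (highest adjusted p = 0.0609).

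Between tissues without INS, 8 diet effects of Pklr and Pfkfb1 differed past the test (highest adjusted p = 0.00442), on the log2 scale. Across the comparisons of this kind, 33.5% to 49.9% of all genes passed, detected or not, and the count of 8 was not tested against these shares. For HFrD against chow, liver minus muscle was 1.47 for Pklr and 2.41 for Pfkfb1, liver minus adipose tissue was 1.69 for Pfkfb1, and muscle minus adipose tissue was -1.23 for Pklr and -0.72 for Pfkfb1. For HFrD-NDGA against HFrD, liver minus muscle was -0.87 for Pfkfb1, and muscle minus adipose tissue was 1.28 for Pklr and 0.82 for Pfkfb1. The Gckr probe was not detected on any HFrD array without INS of muscle or adipose tissue, so no difference that includes these arrays is given for Gckr. Gckr differences that passed the test are therefore not counted. The Pfkfb1 difference of -0.72 was -0.36 with centred arrays (adjusted p = 0.0869).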

How the results depend on the processing

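With arrays centred on their medians, the log2 change of Gckr in liver became 0.72 for HFrD against chow, -0.10 for HFrD-NDGA against HFrD and 0.62 for HFrD-NDGA against chow (adjusted p = 0.0392), that of Pklr became 1.30 for HFrD-NDGA against chow in liver (adjusted p = 0.039), and that of Pfkfb1 in adipose tissue became -0.61, 0.46 and -0.15 for the 3 comparisons. Centring also turned the sign of Gckr in liver for INS against none on chow (0.43), for HFrD-NDGA against chow on INS arrays (-0.25) and for the INS difference of HFrD against chow (-0.25), and in muscle INS arrays, for HFrD-NDGA against HFrD, of Pklr (0.02) and Pfkfb1 (0.01). Without scaling, Gckr became -0.28 for HFrD-NDGA against HFrD in liver and 0.18 for HFrD-NDGA against chow in adipose tissue, and Pfkfb1 0.06 for adipose tissue against muscle on chow. With an offset of 16, Pklr became 1.22 for HFrD against chow in liver and 0.35 for HFrD-NDGA against HFrD in muscle, both past the test, and Gckr -0.23 for HFrD-NDGA against HFrD in liver, not past it (adjusted p = 0.0838). With only genes detected on all arrays of a group, calls were gained at 1.24 for Pklr on HFrD in liver, -0.31 for Pklr on HFrD and 0.38 with NDGA in muscle, and 0.45 for Gckr in muscle for HFrD-NDGA against chow. The fit of 18 arrays gained 1.24 and 0.84 for Pklr in liver against chow and 0.45 for Gckr in muscle, and normalizing 9 arrays alone gained 0.39 for Pklr in muscle with NDGA. At the 2-fold threshold, 1 of the 3 genes stayed past the test for HFrD against chow and 0 for HFrD-NDGA against HFrD in liver, 0 for HFrD against chow in muscle, and 0 in both comparisons in adipose tissue. Each of the 3 genes has 1 probe and no value under 32, so the floor of 32 and the mean of all probes left their own values as they were. The cause of these shifts was not tested. Leaving out single arrays gave ranges of 1.00 to 1.68 for Pklr on HFrD in liver, -0.27 to -0.20 for Gckr and -0.83 to -0.16 for Pklr with NDGA in liver, -0.43 to -0.23 for Pklr on HFrD and -0.05 to 0.15 for Pklr on HFrD-NDGA against chow in muscle, 0.12 to 0.25 for Pfkfb1 with NDGA and -0.05 to 0.10 for Pklr on HFrD-NDGA against chow in adipose tissue. On INS arrays the ranges of Pklr in muscle were -0.01 to 0.32 for HFrD against chow, -0.12 to 0.04 for HFrD-NDGA against HFrD and -0.04 to 0.29 for HFrD-NDGA against chow, and that of Gckr in adipose tissue was -0.13 to 0.14 for HFrD-NDGA against chow. No paired analysis was possible, because the 3 arrays of a group repeat 1 pool and the labels give them serial numbers only. Over all genes, 3158 were called for HFrD against chow in liver and 1983 with centred arrays, 3012 and 1359 for HFrD-NDGA against HFrD in liver, and 1161 for HFrD-NDGA against chow in muscle, with 608 centred, 715 unscaled and 1970 in the fit of 18 arrays. The share of called genes that were higher was, in liver, 62.2% for HFrD against chow (78.6% centred), 54.2% for HFrD-NDGA against HFrD (32% unscaled) and 57.5% for HFrD-NDGA against chow (74.7% centred, 33.4% unscaled), in muscle 47.4% for HFrD against chow (79% unscaled) and 51.1% for HFrD-NDGA against HFrD (17.5% unscaled), and in adipose tissue 31% for HFrD against chow (53.4% unscaled) and 45.5% for HFrD-NDGA against chow (29.2% centred, 88.3% unscaled). Centring put the median change of all genes in adipose tissue at -0.32 for HFrD against chow and 0.26 for HFrD-NDGA against HFrD, against -0.11 and 0.10 with quantiles.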
